A study of Rattus norvegicus with 12 samples.

Results

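The genes followed here encode calcium channels, calcium release channels, calcium pumps and a store sensor, and were chosen by name: Cacna1c, Cacna1h, Cacnb2, Cacna2d1, Ryr2, Ryr3, Itpr1, Atp2a2, Atp2b1 and Stim1. All 10 were found among the 33294 genes of the count table. The cells were PAC1, a single rat line of pulmonary artery smooth muscle cells, in 4 groups of 3 poly(A) libraries. D1 was PAC1-D, the more differentiated culture, with control siRNA, and P was PAC1-P, the more proliferative culture, with control siRNA. RBPMS KD1 was PAC1-D with siRNA against the RNA-binding protein RBPMS, and MBNL KD was PAC1-D with siRNAs against MBNL1 and MBNL2, the muscleblind RNA-binding proteins. Every group therefore received siRNA, which the labels give as 90 pmol in 2 transfections, 24 h apart, with harvest 48 h after the second. The study's methods give a longer schedule and other cell numbers, and the labels' values are used here. PAC1-D and PAC1-P also differed in how often and how thinly they were passaged, so culture and phenotype cannot be told apart. The study's methods describe biological replicates, all of them of 1 line, so p-values measure the spread between these samples.

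Smooth muscle contracts when cytosolic calcium rises and binds calmodulin, which activates myosin light chain kinase. Calcium enters through voltage-gated L-type and T-type channels and leaves the sarcoplasmic reticulum through ryanodine receptors, which calcium opens, and IP3 receptors, which open after agonists activate phospholipase C. The SERCA pump returns calcium to the reticulum, the plasma membrane pump exports it, and STIM1 senses an empty store and opens ORAI channels at the cell surface. Loss of the contractile phenotype in vascular smooth muscle is known to go along with a change in the set of channels and pumps the cells make.

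Total counts per library lay between 80842635 and 90771289. Among counts from 1 to 20, between 67.3% and 70.3% were even, so a count may not always stand for an independent fragment and counting error on small counts may be wider than the counts imply. Levels are given as scaled counts, the counts divided by the library's effective size (total times its TMM factor) and multiplied by the geometric mean of the 12 sizes. A gene with at most 3 counts in a library was treated as not detected there, a limit that covers counting error only. Scaled counts were not divided by transcript length, so levels are compared between groups and not between genes. Counts per gene sum all isoforms, and in these bulk samples fewer cells with a transcript and less transcript per cell cannot be told apart. Rbpms averaged 3337 scaled counts in RBPMS KD1 against 13346 in D1, and Mbnl1 and Mbnl2 stood at 23.7% and 29.5% of their D1 means in MBNL KD, while Rbpms was at 6.30% in P. All 8 smooth muscle markers were detected in every group, with a summed level of 871742 to 916188 scaled counts in D1, 18688 to 19856 in P, 434073 to 449797 in RBPMS KD1 and 694097 to 704524 in MBNL KD. Acta2 and Tagln make up most of that sum in D1 and both knockdowns. In P they averaged 4099 and 5510, beside 5094 for Smtn. By adjusted p 6 of the 8 fell in MBNL KD, while Myh11 rose from 4570 to 6603 and Cnn1 from 1703 to 1840. Blood cell markers Ptprc, Adgre1 and Itgam and the endothelial marker Kdr averaged at most 3 scaled counts in every group, while Cd68 averaged 63.9 to 76.0 and Csf1r rose from 23.6 in D1 to 58.0 in MBNL KD. Fibroblast markers summed to 1996311 to 2092227 in D1, 2178276 to 2368116 in P, 2686889 to 2849633 in RBPMS KD1 and 2163526 to 2194795 in MBNL KD, and Col1a1 and Col1a2 make up nearly all of these sums. Between D1 and RBPMS KD1, Pdgfra rose from 475 to 893 and Dcn from 1146 to 1862, while Lum fell from 11692 to 8982. In MBNL KD Dcn fell to 483, Lum to 7405 and Col1a1 from 1290877 to 1156442, while Col1a2 rose from 732310 to 1016339 and Pdgfra to 548. The endothelial sum was 66.3 to 72.5 in D1, 481 to 599 in P, 162 to 164 in RBPMS KD1 and 82.9 to 125 in MBNL KD. Vwf rose from 40.7 in D1 to 94.8 in RBPMS KD1 and Tek from 23.9 to 59.9, and Cdh5 had 0 counts in D1 and both knockdowns. In P, Cdh5 had 126, 138 and 122 counts, Tek averaged 315 scaled counts and Vwf 100. The part that these shifts in marker transcripts have in the calcium results was not tested.

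Sequences just upstream of Ryr2, Itpr1 and Cacnb2 are printed because these genes were lower in P and higher in MBNL KD. They are RefSeq sequences of the rat assembly GRCr8, while the counts were made on mRatBN7.2, and each runs 5′ to 3′ on the plus strand and ends before the first annotated base of the gene. Capitals mark the GC box (GGGCGG or its complement CCGCCC, overlapping matches counted), the sequence that Sp1-type factors are known to bind.
Ryr2 chr17:63081277-63081526: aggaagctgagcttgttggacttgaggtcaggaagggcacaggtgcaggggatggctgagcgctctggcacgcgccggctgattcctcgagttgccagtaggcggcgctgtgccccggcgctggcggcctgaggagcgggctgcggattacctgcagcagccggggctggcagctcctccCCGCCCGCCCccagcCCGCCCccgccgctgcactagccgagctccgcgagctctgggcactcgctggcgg
Itpr1 chr4:142743190-142743400: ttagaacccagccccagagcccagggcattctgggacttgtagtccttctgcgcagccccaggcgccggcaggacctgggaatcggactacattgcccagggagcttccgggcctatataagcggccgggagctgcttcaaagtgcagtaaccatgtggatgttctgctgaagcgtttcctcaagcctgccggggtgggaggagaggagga
Cacnb2 chr17:82472965-82473096: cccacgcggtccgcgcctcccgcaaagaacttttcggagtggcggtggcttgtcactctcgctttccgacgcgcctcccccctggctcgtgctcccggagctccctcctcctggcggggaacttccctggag
The Ryr2 stretch of 250 bases held 3 GC boxes, whereas the Itpr1 stretch of 211 bases and the Cacnb2 stretch of 132 bases held none. The Cacnb2 stretch is cut at the start of the gene, and the first 250 bases of its full window hold 2. Another Cacnb2 window, not printed, holds 0. Promoter windows were found for 9 of the 10 genes, Cacna1h being the exception, with 13 windows in all. A GC box lay within the first 250 bases of 10 of the 13 windows, in 7 genes, and in 30.5% of all 33469 rat windows of that length. The 10 windows with a GC box were 47.2% to 80.0% G or C. Windows of the same gene can overlap, as those of Cacna2d1 do, and the share over all windows was not matched for G and C content. The CArG box, the site bound by serum response factor, was matched in 0 of the 13 and in 1.5% of all windows, and TATAAA (or TTTATA) in 0 of the 13 and in 12.9% of all. Only these exact strings were searched, so near forms, such as the tatataag of the Itpr1 stretch, were not counted.

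In P against D1, Ryr2, Cacnb2 and Itpr1 fell past the fold threshold, and Cacna1h was detected in P and not in D1. Cacna1h passed the filter on low counts only through P, so its direction was fixed by the filter and it is left out of the counts that follow. Of the other 9 genes, 0 were called higher and 3 lower. A gene was called when its adjusted p was under 0.05 and its log2 fold change lay past 1 in either direction, and rose or fell, in what follows, means an adjusted p under 0.05. The same rule called 27.6% of the 16814 genes tested in this comparison, 16.4% higher and 11.2% lower, a split in which 59.4% of calls were higher and which became 45.4% under quantile normalization. Over the 14446 genes that reached the count minimum in every library of both groups, as the 9 did, it called 20%, 9.86% higher and 10.1% lower. By adjusted p alone 1 of the 9 rose, 6 fell and 2 did not pass, against 77.9% of all genes passing, 40.4% higher and 37.6% lower (37.7% and 40.7% of those past the count minimum in both groups). The groups did not overlap for 8 of the 9, against 79.1% of all genes. The median log2 fold change of the 9 was -0.63, beside 0.02 over all genes tested.

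Against the same D1 libraries, no gene of the set was called in RBPMS KD1 and only Ryr2 was called in MBNL KD. Of the 9 genes tested in RBPMS KD1, 0 were called by edgeR, 0 by DESeq2 and 0 by limma on the normalised values, where 4.68% of 15904 genes were called by edgeR (3.06% higher and 1.62% lower) and 3.4% of those past the count minimum in both groups. By adjusted p alone 3 rose (Atp2b1, Stim1 and Cacna1c) and 2 fell (Atp2a2 and Cacna2d1), the same number, 5, that had an unadjusted p under 0.05, against 59.1% of all genes by adjusted p (29.5% in each direction). In MBNL KD 1 of 9 was called, where 10.2% of 16053 genes were (6.1% higher and 4.14% lower) and 7.74% of those past the count minimum in both groups. By adjusted p alone 4 rose (Cacna1c, Cacnb2, Ryr2 and Itpr1) and 3 fell (Atp2a2, Atp2b1 and Stim1), against 67.5% of all genes (33.8% higher and 33.7% lower, and 34.2% and 36% of those past the count minimum in both groups). The groups did not overlap for 5 of 9 genes in RBPMS KD1 and 8 of 9 in MBNL KD, against 63.4% and 70.3% of all genes. The median log2 fold change of the 9 was 0.03 in RBPMS KD1 and 0.37 in MBNL KD, beside 0.0043 and 0.0099 over all genes. These comparisons share the 3 D1 libraries, so RBPMS KD1 was also set directly against MBNL KD and against P.

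**Figure D1:**
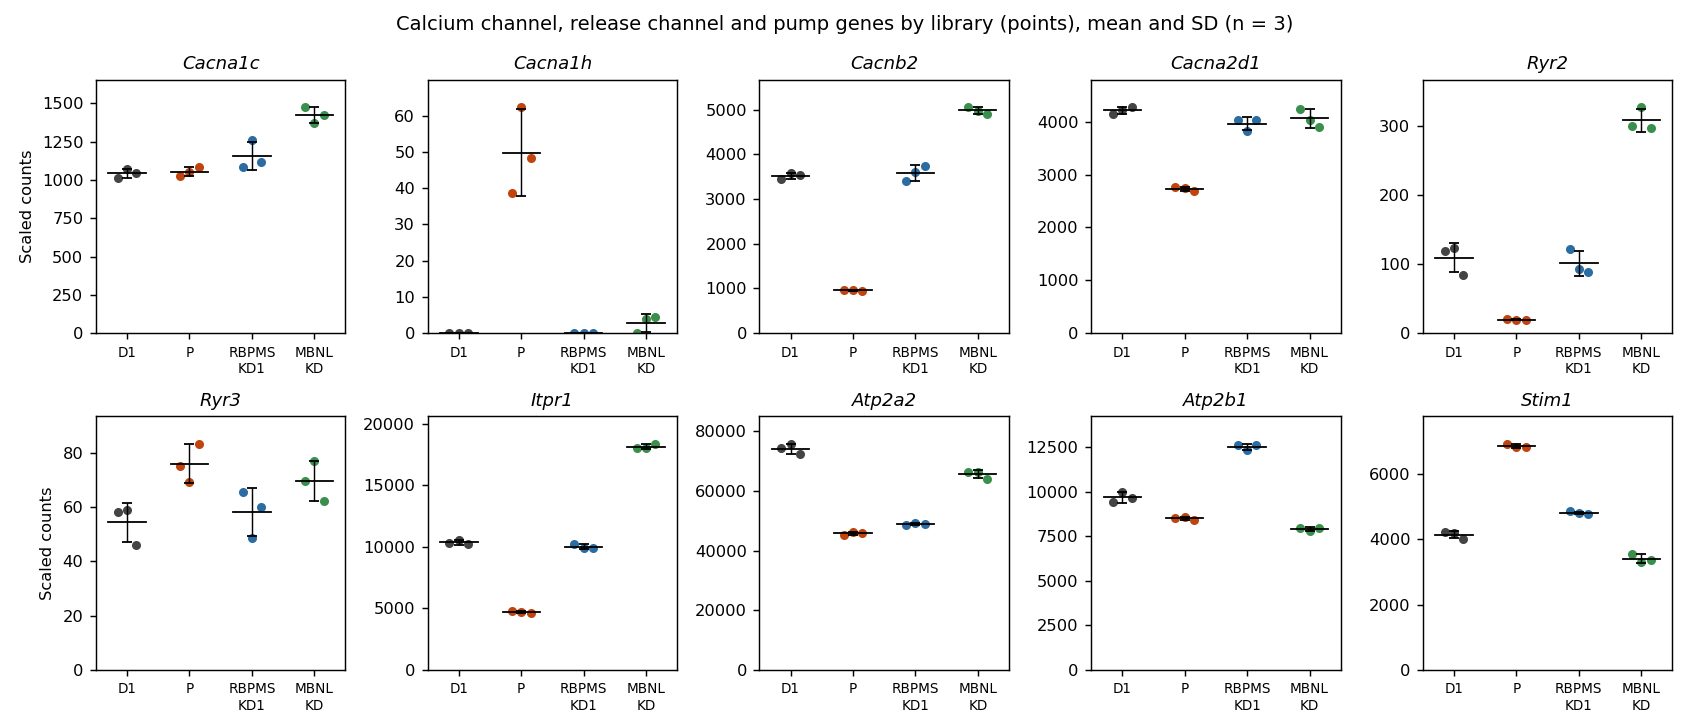
Scaled counts (vertical axis, linear from 0) of the 10 calcium genes in each library of the 4 groups, with points for libraries, the horizontal line for the mean and the bar for the SD (n = 3). Cacnb2, Ryr2 and Itpr1 sit below D1 in P and above D1 in MBNL KD in every library, while Atp2a2 sits below D1 in all 3 of the other groups.

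Cacna1c encodes the pore of the L-type channel, the main voltage-gated entry route of vascular smooth muscle. Its scaled counts were 1010, 1071 and 1048 in D1, 1028, 1053 and 1084 in P, 1087, 1259 and 1121 in RBPMS KD1 and 1478, 1375 and 1422 in MBNL KD. D1 and P overlapped, and the 3 MBNL KD libraries stood above all 9 others. P differed from D1 by a log2 fold change of 0.02 (95% confidence interval -0.10 to 0.13, adjusted p = 0.82). In MBNL KD Cacna1c rose by a log2 fold change of 0.46 (SE 0.055, adjusted p = 1.7e-08). Its difference in RBPMS KD1 was 0.15 (SE 0.061, adjusted p = 0.038), and the adjusted p was under 0.05 in 9 of 15 other settings, with log2 fold changes of 0.08 to 0.19 over the 15. With all libraries kept the adjusted p was 0.057 with DESeq2, 0.064 under quantile normalization and 0.13 with limma on the normalised values. With 1 library left out it was 0.29 without RBPMS KD1 replicate 2, 0.13 without D1 replicate 1 and 0.071 without D1 replicate 3. The value without RBPMS KD1 replicate 2, the highest of its group, was 0.08.

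Cacna1h encodes a T-type pore, which opens at more negative voltages than the L-type. It had 0 counts in every D1 and RBPMS KD1 library, 41, 66 and 51 counts in P, and 0, 4 and 4 in MBNL KD. P was the only group with more than 4 counts in a library. Scaled, the P libraries held 38.6, 62.5 and 48.4, with a mean of 49.8 that was at least 16.2-fold higher than the limit of 3 counts per library in D1, put on the same scale. The bound against RBPMS KD1 was 16.5-fold. No test is given for either difference, because the gene passed the filter only through P. The gene was too low to be tested in either knockdown against D1. Cacna1a, the pore of the P/Q-type channel and best known from neurons, moved the same way, with 294 to 332 scaled counts in the D1 libraries and 2372 to 2569 in those of P (log2 fold change 3.01). Neuron markers summed to 500 to 522 scaled counts in D1 and 7261 to 7429 in P, with Snap25 not detected in P. The increase was that of Stmn2, from 147 to 7095, while Syt1 fell from 299 to 163 and Syn1 was at 63.9 and 57.7. Neuron markers summed to 484 to 536 in RBPMS KD1 and 136 to 216 in MBNL KD, where Syt1 fell to 41.3 and Stmn2 to 75.5. Their part was not tested.

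Cacnb2 encodes a beta subunit, which binds the pore inside the cell and aids its delivery to the membrane. Its scaled counts were 3436, 3577 and 3537 in D1, 965, 956 and 936 in P, 3405, 3592 and 3741 in RBPMS KD1 and 5059, 4978 and 4899 in MBNL KD. The P libraries lay at 27.1% of the D1 mean and the MBNL KD libraries at 142%, both clear of D1, while RBPMS KD1 overlapped it. Cacnb2 fell in P by 1.89 on the log2 scale (SE 0.044, adjusted p = 5.5e-28) and rose in MBNL KD by 0.51 (SE 0.033, adjusted p = 2.0e-14). In RBPMS KD1 the log2 fold change was 0.03, with a 95% interval of -0.05 to 0.11 (adjusted p = 0.57). Cacna2d1, the alpha2delta subunit that sits outside the membrane, had 4149 to 4279 scaled counts in D1 and 2686 to 2768 in P. It fell in P by 0.63 (SE 0.035, adjusted p = 3.9e-17), to 64.8% of D1. Its MBNL KD libraries, 3901 to 4246, overlapped D1 (log2 fold change -0.05, adjusted p = 0.24). In RBPMS KD1, at 3817 to 4038, the change was -0.09 (adjusted p = 0.034), passing in 10 of 15 other settings, with an adjusted p of 0.15 under quantile normalization and 0.14 with limma, and of 0.20 without RBPMS KD1 replicate 2, 0.11 without D1 replicate 3 and 0.063 without D1 replicate 2.

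Ryr2 encodes the ryanodine receptor known best as the release channel of the heart and found in vascular muscle too. Its scaled counts were 119, 124 and 84.7 in D1, 20.7, 18.9 and 19.0 in P, 122, 93.2 and 88.2 in RBPMS KD1 and 300, 328 and 298 in MBNL KD. P lay below every other library and MBNL KD above every other, whereas RBPMS KD1 overlapped D1. Ryr2 fell in P by 2.47 on the log2 scale (SE 0.26, adjusted p = 3.8e-10) to 17.9% of D1, a value of -1.63 with limma on the normalised values, and rose in MBNL KD by 1.51 (SE 0.14, adjusted p = 7.1e-11) to 283% of D1. In RBPMS KD1 the log2 fold change was -0.10, with a 95% interval of -0.50 to 0.29 (adjusted p = 0.67). MBNL KD also exceeded RBPMS KD1 when the knockdowns were compared directly, with a log2 fold change of -1.61 for RBPMS KD1 against MBNL KD (adjusted p = 1.0e-11). Of the 5 cardiac markers, Myh7 and Nppa averaged at most 3 scaled counts in all 4 groups and Myh6 in all but MBNL KD, where it averaged 5.55. Their sum was 298 to 363 in D1, 722 to 828 in P, 204 to 227 in RBPMS KD1 and 758 to 878 in MBNL KD. Within that sum Tnni3 averaged 80.5 in D1, 653 in P and 58.9 in MBNL KD, and Tnnt2 254, 134 and 768. Their part was not tested.

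Itpr1, the IP3 receptor type 1, moved in the same directions as Ryr2. Its scaled counts were 10334, 10587 and 10194 in D1, 4818, 4705 and 4597 in P, 10254, 9899 and 9900 in RBPMS KD1 and 18055, 18041 and 18406 in MBNL KD. P stood at 45.4% and MBNL KD at 175% of D1, and no library of either came near the D1 range. Itpr1 fell in P by 1.14 on the log2 scale (SE 0.029, adjusted p = 6.3e-27) and rose in MBNL KD by 0.82 (SE 0.024, adjusted p = 8.8e-23). The latter stayed under the fold threshold. In RBPMS KD1 it overlapped D1, with a log2 fold change of -0.05 and a 95% interval of -0.10 to 0.0079 (adjusted p = 0.13). Set directly against MBNL KD, RBPMS KD1 was lower, with a log2 fold change of -0.86 (adjusted p = 5.6e-23).

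Ryr3, the third ryanodine receptor, was counted at low levels throughout. Its libraries ranged from 45.9 to 58.8 scaled counts in D1, 69.1 to 83.4 in P, 48.6 to 65.7 in RBPMS KD1 and 62.2 to 77.1 in MBNL KD. P and MBNL KD did not overlap D1, but no comparison with D1 passed: the log2 fold changes were 0.48 in P (95% interval 0.01 to 0.95, adjusted p = 0.057), 0.10 in RBPMS KD1 (adjusted p = 0.75) and 0.37 in MBNL KD (adjusted p = 0.16). The value in P was -0.019 under quantile normalization, whereas its adjusted p was 0.034 with a minimum of 10 counts in every library, 0.045 with 1 fit of all 12 libraries and 0.033 with the counts halved.

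**Figure D2:**
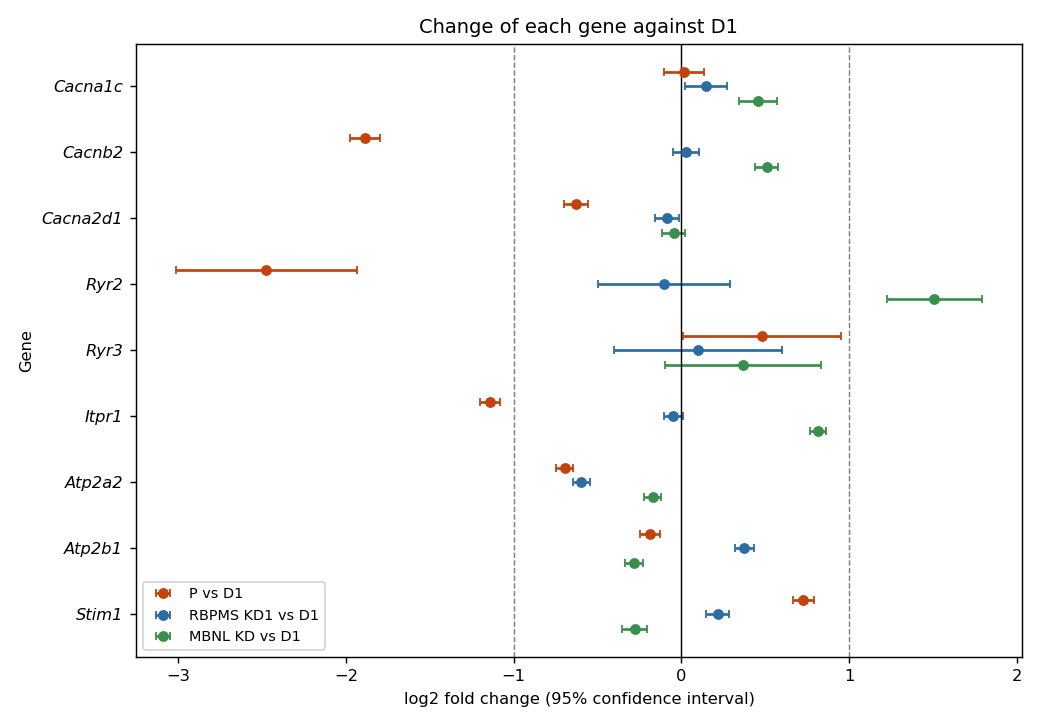
Log2 fold change against D1 (horizontal axis) of 9 calcium genes in P, RBPMS KD1 and MBNL KD, with bars for the 95% confidence interval from edgeR, a solid line at 0 and dashed lines at the fold threshold of 1 in either direction. Cacna1h is left out because D1 had no counts. Ryr2, Cacnb2 and Itpr1 lie past the threshold in P, and Ryr2 lies past it in MBNL KD at 1.51.

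The pumps followed another order. Atp2a2 encodes SERCA2, which refills the sarcoplasmic reticulum. Its scaled counts were 74239, 75828 and 72385 in D1, 45327, 46157 and 45888 in P, 48700, 49173 and 49011 in RBPMS KD1 and 66348, 66430 and 64035 in MBNL KD. All 9 libraries of the other groups lay below the lowest of D1, with means at 61.8% of D1 in P, 66.0% in RBPMS KD1 and 88.5% in MBNL KD. Atp2a2 fell in P by 0.70 on the log2 scale (SE 0.024, adjusted p = 2.9e-23), a value of -0.44 under quantile normalization, and in RBPMS KD1 by 0.60 (SE 0.025, adjusted p = 4.1e-18), both short of the fold threshold. P and RBPMS KD1 differed from each other by -0.12 (adjusted p = 4.4e-05), a difference that turned to 0.035 (adjusted p = 0.12) under quantile normalization. In MBNL KD the log2 fold change was -0.17 (adjusted p = 4.5e-07) and -0.021 under quantile normalization (adjusted p = 0.40).

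Atp2b1, the plasma membrane calcium pump PMCA1, rose in one knockdown and fell in the other. Its scaled counts were 9395, 9989 and 9629 in D1, 8534, 8567 and 8408 in P, 12622, 12322 and 12626 in RBPMS KD1 and 7980, 7762 and 7982 in MBNL KD. The groups ran in the order MBNL KD, P, D1 and RBPMS KD1 with no overlap between neighbours. The log2 fold changes were 0.37 in RBPMS KD1 (SE 0.028, adjusted p = 2.4e-12), -0.19 in P (SE 0.028, adjusted p = 3.6e-07) and -0.28 in MBNL KD (SE 0.026, adjusted p = 9.0e-11). The direct difference between the knockdowns was 0.66 for RBPMS KD1 against MBNL KD (adjusted p = 5.7e-20).

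Stim1, the calcium sensor of the reticulum membrane, was highest in P. Its scaled counts were 4228, 4206 and 4015 in D1, 6945, 6828 and 6847 in P, 4863, 4808 and 4786 in RBPMS KD1 and 3566, 3300 and 3356 in MBNL KD. The groups ran from MBNL KD through D1 and RBPMS KD1 to P without overlap. Stim1 rose in P by a log2 fold change of 0.73 (SE 0.031, adjusted p = 1.8e-20) and in RBPMS KD1 by 0.22 (SE 0.033, adjusted p = 2.3e-06), and was -0.28 in MBNL KD (SE 0.036, adjusted p = 8.5e-08). P exceeded RBPMS KD1 by 0.49 (adjusted p = 5.5e-16).

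Between the knockdowns themselves, Ryr2 was the 1 gene called of the 9 tested, where the rule called 11.9% of 16111 genes (6.03% higher and 5.88% lower). By adjusted p alone Atp2b1 and Stim1 were higher in RBPMS KD1 than in MBNL KD and 5 genes were lower (Cacna1c, Cacnb2, Ryr2, Itpr1 and Atp2a2), leaving Cacna2d1 (log2 fold change -0.04, adjusted p = 0.39) and Ryr3 (-0.26, adjusted p = 0.31). By adjusted p alone, 69.5% of all genes passed, 34.5% higher and 35.1% lower. The groups did not overlap for 7 of the 9, against 71.8% of all genes. Between P and RBPMS KD1, with Cacna1h again left out, 3 of 9 were called, Cacnb2 (-1.94), Ryr2 (-2.39, and -1.47 with limma on the normalised values) and Itpr1 (-1.12) lower in P, where 29.1% of 16899 genes were called (16.1% higher and 13% lower) and 21.5% of those past the count minimum in both groups. Of the calls over all genes 55.4% were higher, and 44.8% under quantile normalization. By adjusted p alone 1 of the 9 was higher and 7 were lower in P, against 79.4% of all genes passing (40.5% higher and 39% lower), and the groups did not overlap for 9 of 9, against 80.5% of all genes. Cacna1c was lower in P than in RBPMS KD1 by an adjusted p of 0.020, which stayed under 0.05 in 11 of 15 other settings and became 0.053 with DESeq2, 0.053 with a minimum of 10 counts, 0.21 without RBPMS KD1 replicate 2 and 0.086 without P replicate 1.

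The paralogues of the release channels did not move with Ryr2 and Itpr1 in P. Ryr1, the skeletal muscle receptor, had 24.8 to 40.9 scaled counts in D1 and 2084 to 2102 in P, a log2 fold change of 6.10 (SE 0.10, adjusted p = 2.5e-32). Itpr2 had 165 to 185 in D1 and 2879 to 3028 in P (log2 fold change 4.08, adjusted p = 5.1e-33), and Itpr3 5195 to 5419 in D1 and 11378 to 12183 in P (1.17). Both families therefore held genes that rose and genes that fell between the cultures. In MBNL KD, Itpr3 fell to 2110 to 2307, by 1.25 on the log2 scale (adjusted p = 1.6e-22), while Itpr1 rose. Itpr2 rose too, to 318 to 348 (log2 fold change 0.93, adjusted p = 1.8e-08), and Ryr1 was at 14.8 to 45.8 (log2 fold change -0.15). Skeletal muscle markers summed to 99.0 to 135 scaled counts in D1 and 121 to 141 in P, with Myh2 and Myh4 at 0 counts in every library. The sum was 49.6 to 68.2 in RBPMS KD1 and 38.2 to 75.1 in MBNL KD. Ckm fell from 87.2 in D1 to 23.9 in RBPMS KD1 and 29.8 in MBNL KD.

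**Figure D3:**
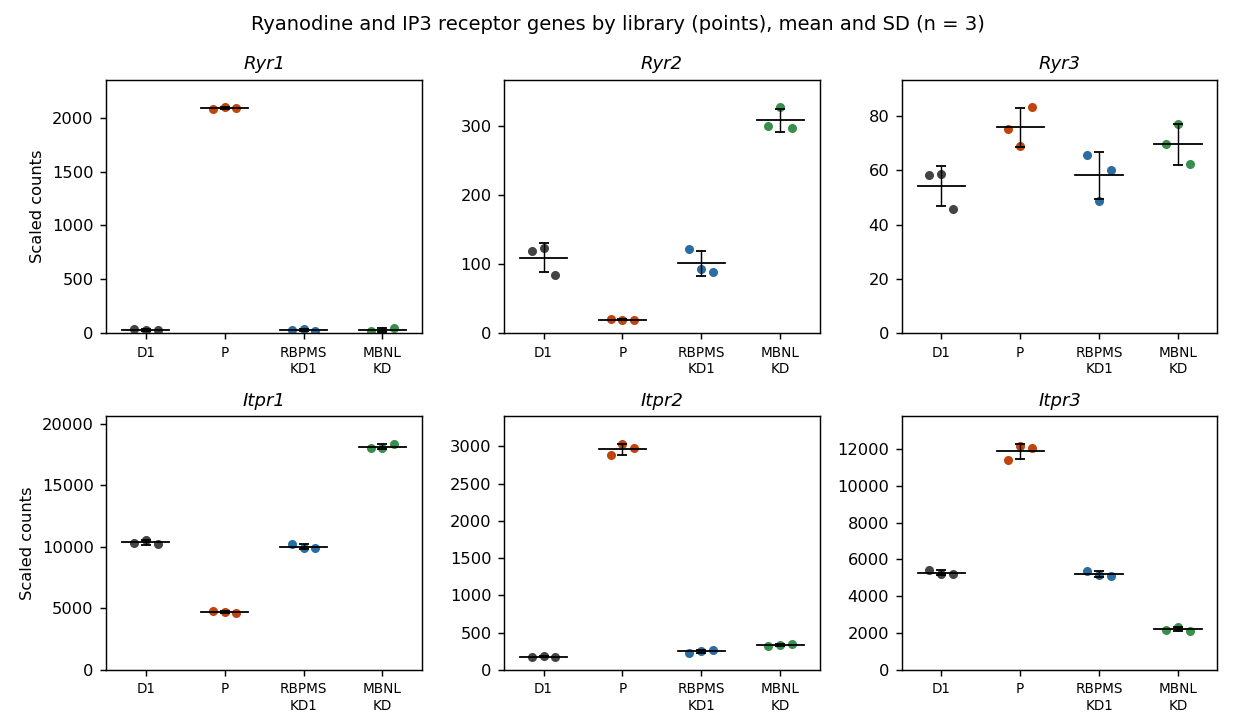
Scaled counts (vertical axis, linear from 0, scaled separately per gene) of the ryanodine receptor genes Ryr1 to Ryr3 and the IP3 receptor genes Itpr1 to Itpr3 in each library of the 4 groups, with points for libraries, a line for the mean and a bar for the SD (n = 3). Ryr1, Itpr2 and Itpr3 are highest in P, and Ryr2 and Itpr1 are highest in MBNL KD and lowest in P.

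Beyond the 10, a list of 100 further calcium-handling genes was counted. In P against D1, 76 of the 100 were tested and 68 reached the count minimum in every library of both groups. Only the 68 are counted here and by list, since a gene that passed the filter through 1 group had its direction fixed by it. Of the 68, 11 were called higher and 14 lower, beside 9.86% and 10.1% of all such genes, with a median log2 fold change of -0.22. Lower genes included Irag1, the IP3 receptor partner that cyclic GMP-dependent kinase phosphorylates, which went from 25548 ± 1011 to 196 ± 21.8 scaled counts (SD, n = 3; log2 fold change -7.02). Trpc6, a receptor-operated cation channel, went from 8352 to 226 (-5.21), and Hrc, a calcium-binding protein of the reticulum lumen, from 2421 to 98.0 (-4.63). The beta subunit gene Cacnb1 fell from 500 to 32.4 (-3.94), so that both Cacnb1 and Cacnb2 were lower in P, whereas Cacnb4 rose from 104 to 293 (0.86 on the log2 scale with limma, short of the fold threshold). Among the other alpha2delta genes Cacna2d4 rose from 2573 to 4163 (0.69) and Cacna2d2 from 735 to 902 (0.30), unlike Cacna2d1, and the beta subunit gene Cacnb3 was at 6431 and 6607 (0.04, adjusted p = 0.24). These 3 are named after their values were seen. Gem, a small GTPase that binds beta subunits and restrains the channel, fell from 980 to 77.2 (-3.66), and the exchanger gene Slc24a3 from 1868 to 173 (-3.44). Rising genes, besides Ryr1, Itpr2, Cacna1a and Cacnb4, included Nfatc4, a calcineurin-dependent transcription factor, from 549 to 2194 (2.00), and Mcub, a subunit that limits the mitochondrial uniporter, from 418 to 1012 (1.27).

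By list in P, to be read beside the same 9.86% higher and 10.1% lower, voltage-gated channel subunits split into 2 higher and 2 lower of 8, their modulators into 0 and 2 of 4, and release channels with their partners into 4 and 2 of 10. Reticulum calcium buffers had 0 higher and 2 lower of 6, pumps and pump regulators 2 and 1 of 5, and exchangers 0 and 3 of 5. Store-operated entry had 0 higher and 1 lower of 7, the lower gene being the receptor-operated channel Trpc6. All 7 fell by adjusted p alone (40.7% of all such genes did) while Stim1, not counted among them, rose. The listed genes other than Trpc6 stood at 56.7% (Orai2) to 84.4% (Stim2) of their D1 means. Mitochondrial uptake had 1 higher of 8, and calcium sensors with the calcineurin pathway 2 higher and 1 lower of 15.

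In RBPMS KD1, 75 of the 100 were tested, and of the 70 past the count minimum in both groups 3 were called higher and 1 lower, beside 2.2% and 1.2% of all such genes, with a median log2 fold change of 0.02. Limma on the normalised values called 0 of them. Irag1 fell from 25548 to 11875 ± 78.3 scaled counts (SD, n = 3; log2 fold change -1.10), a value of -0.997 with limma on the normalised values, short of the fold threshold. Pln, phospholamban, the inhibitor of SERCA2, rose from 40.3 ± 2.57 to 117 ± 15.6 (1.54, adjusted p = 4.8e-07, and 0.94 with limma) in the same libraries in which Atp2a2 fell. In P, Pln was at 2 to 5 counts per library. The other genes called had under 100 scaled counts in both groups and are named after their values were seen: Atp2a3, from 22.5 to 46.4 (1.04), and the L-type pore gene Cacna1s, from 19.8 to 45.5 (1.19).

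In MBNL KD, 76 were tested, and of the 71 past the count minimum in both groups 8 were called higher and 4 lower, beside 4.02% and 3.72% of all such genes, with a median of 0.0036. By list, reticulum calcium buffers had 3 called higher and 0 lower of 6, and pumps and pump regulators, which include the plasma membrane and secretory pathway pumps, 3 and 1 of 6. Voltage-gated channel subunits had 1 and 0 of 9, their modulators 0 and 1 of 5, release channels with their partners 0 and 1 of 10 and store-operated entry 1 and 1 of 7. In the store-operated list the higher gene was Trpc6 and the lower one Orai3. Exchangers (5 genes), mitochondrial uptake (8) and calcium sensors with the calcineurin pathway (15) had 0 called. Casq2, calsequestrin, the calcium store protein, rose from 2546 ± 154 to 6979 ± 219 scaled counts (SD, n = 3; log2 fold change 1.46), and Hrc from 2421 ± 7.89 to 6582 ± 206 (1.45). The third buffer called, Casq1, went from 434 to 994 (1.20) and is named after its values were seen. In P Casq2 and Hrc were lower, Casq2 at 241 and Hrc at 98.0. Pln rose to 121 ± 8.50 (1.59, and 0.94 with limma on the normalised values, short of the fold threshold), and Atp2a3, the SERCA3 pump, from 22.5 ± 11.3 to 206 ± 20.4 (3.19, adjusted p = 2.8e-13, and 2.01 with limma). Trpc6, 8352 in D1, was at 18248 ± 399 in MBNL KD (log2 fold change 1.13). By adjusted p 28 of the 71 rose and 22 fell, beside 34.2% and 36% of all such genes. The 4 called lower were Atp2b4, the pump PMCA4, from 7930 to 2692 (-1.55), Orai3, a store-operated channel subunit, from 1951 to 695 (-1.48), Itpr3 as given above, and Gem from 980 to 441 (-1.15). Atp2b1 and Atp2b4 were thus both lower in MBNL KD. Cycling cell markers summed to 73331 to 75114 scaled counts in D1, 89235 to 91548 in P, 60801 to 62608 in RBPMS KD1 and 49569 to 49902 in MBNL KD, and their part in these results was not tested.

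**Figure D4:**
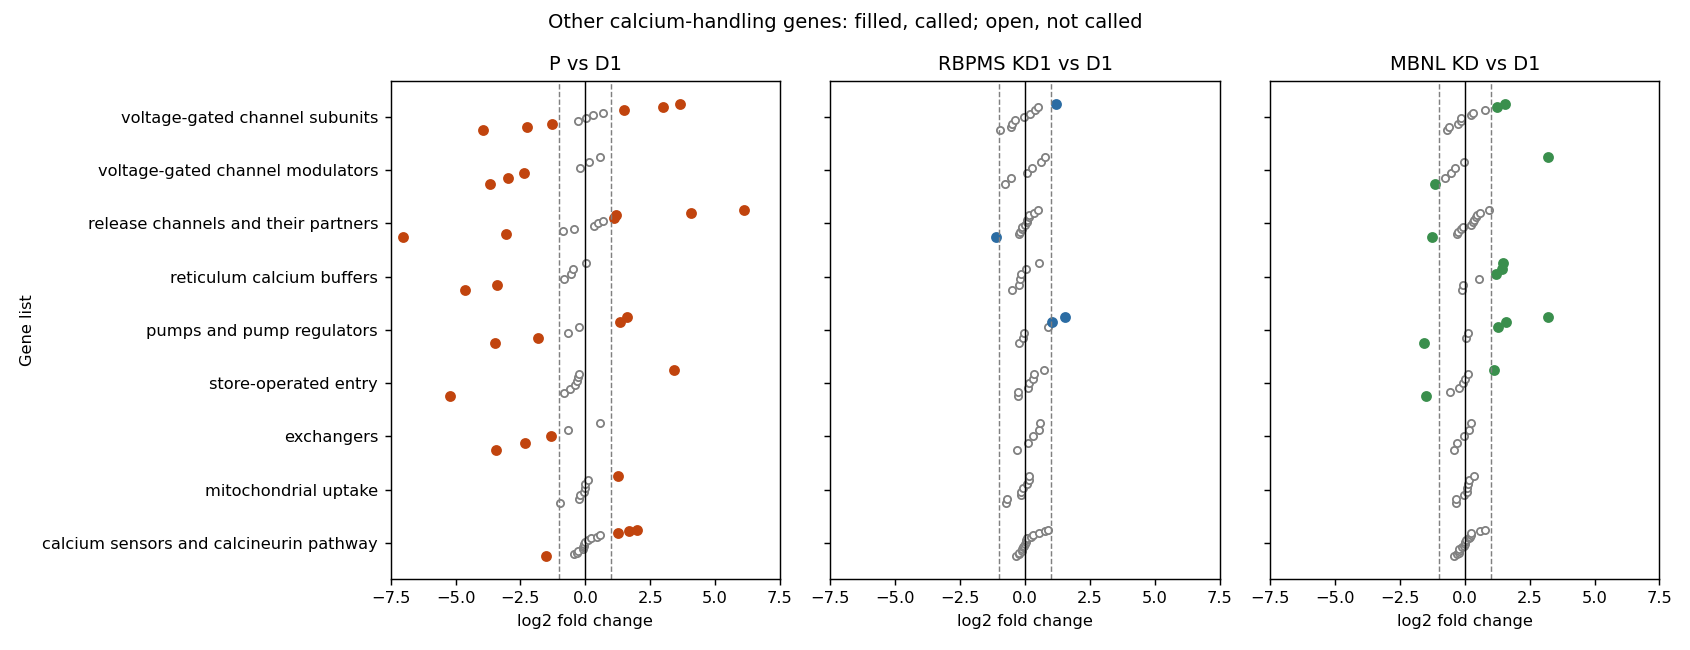
Log2 fold change against D1 (horizontal axis) of the tested genes among 100 other calcium-handling genes, grouped by list, in P, RBPMS KD1 and MBNL KD. Filled points are genes that passed both thresholds (dashed lines mark the one on fold change), 31 in P, 4 in RBPMS KD1 and 14 in MBNL KD, and open points are the others. Filled points include 6 genes in P (Cacng7, Trpc7, Camk2a, Stac2, Cacna1s and Pln) and 2 in MBNL KD (Stac and Cacna1e) that passed the filter through 1 group and are not counted in the text.

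Genes whose pattern over the 12 libraries lay nearest each calcium gene were sought among 13661 genes, by the root-mean-square difference of log2 scaled counts centred on the D1 mean. The nearest to Atp2a2 was Mef2c (0.046), a transcription factor gene of muscle, followed by Kpna5 (0.066). Stim1 was nearest to St6galnac4 (0.043) and Slc38a2 (0.057), Atp2b1 to Gga1 (0.049) and Hexa (0.051), and Cacna2d1 to Fmnl3 (0.043) and Pitpna (0.044). Itpr1 was nearest to Srm (0.078) and Chchd4 (0.12), Cacnb2 to Btg1 (0.090) and Magea13 (0.11), and Cacna1c to Serf2 (0.064) and Zfp62 (0.064). For the low-count genes the nearest lay farther off, with Rapgef4 (0.24) and Ust (0.26) for Ryr2, Zfp12 (0.13) and Dnah17 (0.14) for Ryr3, and Rgs8 (0.23) and Kcnip4 (0.52) for Cacna1h. These distances carry no test, and no calcium gene was the nearest of another.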

How the data were processed

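RNA-Seq of 12 poly(A) libraries in 4 groups of 3 was analysed, with groups taken from the sample labels. The authors subsampled reads with seqtk, aligned them with STAR 2.7.11b to mRatBN7.2 and counted them per RefSeq gene with featureCounts; the deposited counts are raw and were used as the main data. The strand and mate settings of the counting are not given in the sources used here. The second deposited table holds normalised signal values, made by the authors with noisyR and quantile normalization, on a linear scale, and was used for 1 alternative. The labels also list FastQC 0.11.9, MultiQC 1.14, edgeR 3.40.2 and DESeq2 1.38.3.

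Fits used the 6 libraries of a comparison, in R 4.3.3 with edgeR 4.0.16 (filterByExpr, TMM, quasi-likelihood F test) and adjusted by Benjamini-Hochberg over all genes tested. Counts over lists leave out genes for which 1 of the groups did not reach the filter's minimum (the CPM of 10 counts at the median library size) in all its libraries, a choice made after seeing the data. Genes were called at an adjusted p under 0.05 with an absolute log2 fold change above 1. Dividing a log2 fold change by the root of its F statistic gave the SE. Alternatives, including limma 3.58.1 and DESeq2 1.42.0, are given in the closing section. With 3 libraries against 3, an exact permutation test cannot go below p = 0.1. On simulated data, 200 of 200 changed genes, all with simulated log2 fold changes well past the threshold, were called in each comparison with D1. False calls were 0, 0 and 1 in P, RBPMS KD1 and MBNL KD. Recovery of fold changes nearer the threshold, such as that of Itpr1 in P, was not tested. Recovery was not split by count level, so it was not tested for genes as low as Ryr2 in P. Replicate numbers are not described as pairing samples, and the correlations of same-numbered libraries' deviations lay between -0.034 and 0.018.

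The 10 genes and the lists were chosen with earlier results of these data known. From the list of 100 further genes, called genes whose higher group averaged 100 or more scaled counts were named, up to 6 per direction in P and up to 4 per direction in each knockdown, by size of fold change. The 2 genes nearest in pattern to each of the 10 were named with a pseudocount of 0.5, leaving out LOC, RGD and AABR symbols. Ryr1 to Ryr3 and Itpr1 to Itpr3 were shown together after their values had been seen.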

Additional observations from a re-analysis of the deposited data

How the results depend on the processing

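Of 701 recomputed log2 fold changes of the 10 genes, 683 kept their direction and their side of the calling rule and 18 reversed, all 18 of them in values that were not called. Under quantile normalization and with limma on the authors' normalised values, Cacna1c in P against D1 was -0.074 and -0.074, Ryr3 in P against D1 -0.019 and -0.0072, Ryr3 in RBPMS KD1 against D1 -0.029 and -0.020, Itpr1 in RBPMS KD1 against D1 0.0027 and 0.0022, Cacna2d1 in MBNL KD against D1 0.029 and 0.028, and Atp2a2 in P against RBPMS KD1 0.035 and 0.040. Ryr3 in P against D1 passed by adjusted p with a minimum of 10 counts (0.034), 1 fit of all libraries (0.045) and halved counts (0.033). With 1 library left out, Cacna1c in P ranged from -0.014 (without D1 replicate 1) to 0.035, with -0.0016 without P replicate 3, Cacnb2 in RBPMS KD1 from -0.0060 (without RBPMS KD1 replicate 3) to 0.063, Ryr3 in RBPMS KD1 from -0.0084 (without D1 replicate 3) to 0.21, and Cacna2d1 in RBPMS KD1 against MBNL KD from -0.055 to 0.0072 (without MBNL KD replicate 1), with 0.0063 without RBPMS KD1 replicate 2. Leaving out each library left the calls among the 10 at 4 to 4 in P, 0 to 0 in RBPMS KD1, 1 to 1 in MBNL KD, 1 to 1 between the knockdowns and 4 to 4 in P against RBPMS KD1. Without the fold threshold these counts were 8, 5, 7, 7 and 9. One fit of all 12 libraries called 2 in MBNL KD and 2 between the knockdowns, because Cacna1h was then tested. With a minimum of 10 counts in every library, or in the normalised table, Cacna1h was not tested and 3 genes were called in P. These counts over the 10 include Cacna1h wherever it was tested, and leaving it out was chosen after seeing the data. Over all tested genes of the further 100, including those past the count minimum in 1 group alone, 31, 4 and 14 were called, calls without a fold threshold were 66 in P, 55 in RBPMS KD1 and 52 in MBNL KD, and limma called 0 in RBPMS KD1 and 9 in MBNL KD. With limma the genes Cacnb4 in P (0.86), Pln in RBPMS KD1 (0.94), Irag1 in RBPMS KD1 (-0.997) and Pln in MBNL KD (0.94) no longer passed the fold threshold. The other 326 recomputed values, of genes named by size of fold change, kept their side. Called genes named in other ways, such as Atp2a3 and Cacna1s in RBPMS KD1 and Casq1 and Trpc6 in MBNL KD, were not recomputed singly. Limma, which called 0 in RBPMS KD1, called neither Atp2a3 nor Cacna1s there. Counts over the further genes were recomputed by alternatives added after seeing the data. Over all genes, limma called 209 in RBPMS KD1, 784 in MBNL KD and 1050 between the knockdowns, against 745, 1643 and 1920, and a minimum of 10 counts called 2933 in P and 3154 in P against RBPMS KD1, against 4641 and 4914. Without the fold threshold the counts over all genes were 13103 in P, 9393 in RBPMS KD1, 10833 in MBNL KD, 11202 between the knockdowns and 13423 in P against RBPMS KD1. Quantile normalization moved the share of higher calls in RBPMS KD1 from 65.4% to 54.0% in MBNL KD from 59.6% to 50% and in P against RBPMS KD1 from 55.4% to 44.8%, with median shifts under 0.1 on the log2 scale. The replicate numbers are not described as pairing the samples. With the replicate block 4, 0, 1, 1 and 4 of the 10 were called, and no gene recomputed singly changed its side of the calling rule. The counts over all genes then became 4593 in P, 730 in RBPMS KD1 and 1634 in MBNL KD. Ryr2, Ryr3 and Cacna1h had at most 332 counts in any library, and whether depth limits their precision was not tested. The causes of these changes were not tested.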
